A study of Mus musculus with 4 samples.

Results

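Runx2 occupied 8739 regions of the mouse genome that lay more than 100 kb from every start site of a protein-coding transcript and in no protein-coding exon. They were chosen from 67703 regions, made by merging Runx2 peaks of 3 time points that shared at least 1 bp, and came to 12.9% of all regions (exact 95% binomial interval 12.7 to 13.2). The rule used position only and took in every time pattern. Of 8810 regions whose centre lay over 100 kb away, 71 were in exons and were left out. The nearest member lay 100014 bp from a start site and the nearest region outside the rule 99996 bp. The median distance was 170.4 kb and the largest 2410 kb.

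The peaks came from ChIP-Seq, in which DNA bound by a protein in fixed chromatin is recovered with an antibody and sequenced. The cells were MC3T3-E1 (subclone 4), a preosteoblast line from mouse calvaria that is labelled C57BL/6 and is 1 clone, so that primary bone cells are not represented. Proliferating preosteoblasts at day 0, matrix-depositing osteoblasts at day 9 and mineralizing osteoblasts at day 28 were compared, with differentiation induced by ascorbic acid and beta-glycerophosphate and chromatin precipitated with the Runx2 antibody M70. The authors pooled 2 libraries for each time point and used input DNA of day 9 cells as the control for all 3, so 1 list of peaks stood for each time point and differences between time points could not be set against replicate error. Intervals below cover counting error only, and the lists hold no read counts, so the reads behind each peak are unknown here. By the study's library summary, the proliferating cells were sequenced most deeply. Peaks numbered 25457 in the day 0 list, 60596 in that of day 9 and 40330 in that of day 28, so the most deeply sequenced time point had the shortest list. For days 9 and 28, a missing peak may mean weaker occupancy or fewer reads, which cannot be told apart.

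Runx2 is the runt-domain factor that osteoblasts need in order to form, and it binds DNA with its partner Cbfb at a short core, TGTGGT on one strand and ACCACA on the other. Vertebrate developmental genes often have enhancers far from their start sites, in gene deserts or in introns of neighbouring genes, which meet the promoter by looping of chromatin. Binding at such distance does not by itself show which gene is served, and a gene named here is only the one with the nearest coding start site.

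A first group of 4 members shows the range of these sites. They were taken by position or by score as the farthest of all, a pair among the strongest at all 3 time points, and the strongest at day 9 only. Each is printed as 30 bases of NCBIM37 (mm9) around its core, 5′ to 3′ on the strand that reads TGTGGT, with the core in capitals.
Cdh20 side, chr1:104254758-104254787, plus strand: cagggtacatctTGTGGTcaggacatccgg
Nrp2 side, chr1:62469708-62469737, minus strand: tggttagaacacTGTGGTaatggggtcaag
Osr1 side, chr12:9905301-9905330, plus strand: tgggagagctgcTGTGGTcagcagccaggg
Dync1i1 intron, chr6:5816873-5816902, plus strand: cgtgtgtgtgtgTGTGGTgtgtgtgtgtgg
The first 3 cores stand in mixed sequence and the last in a run of TG dinucleotides.

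The farthest member, chr1:104254714-104254847, lay 2410 kb upstream of Cdh20, a cadherin gene, and had a peak at day 9 only with a score of 181.62. It was 134 bp wide, and its central 32 bases had 3 copies in the assembly. The score is the peak caller's value, 10 times the negative log10 of its p-value, with a lowest value of 100 in these lists. The second farthest lay 2140 kb from the same gene and had peaks at all 3 time points, scoring 201.87, 404.44 and 266.82 on days 0, 9 and 28. A region 1894 kb downstream of Efna5, an ephrin ligand gene, had a peak at day 28 only with a score of 132.48. The scores of these members were low or middling in their lists, from percentile 14.8 to 62.2. Distance did not preclude the highest scores. The Nrp2 region, chr1:62469263-62470136, lay 280.2 kb from its nearest start site in an intron of Pard3b, a cell polarity gene, and scored 2372.07 at day 0, 3100 at day 9 and 3155.35 at day 28. Nrp2 encodes a semaphorin and VEGF co-receptor. The Osr1 region, chr12:9904686-9905858, lay 324.0 kb from the start of a zinc finger gene of limb and kidney mesenchyme and scored 3183.78, 3100 and 3100. Both stood at percentile 97.4 or higher in every list. A further region, chr17:39979720-39986027, was listed at 3100 on each day, a score that 141 remote peaks shared at day 9. Unlike these 2, it spanned 6308 bp, over the pseudogene AY036118 and 362.7 kb from Pgk2. It held no Runx core within 50 bp of its centre, and whether its signal is Runx2 binding was not tested. Regions nearest to Setd4 and Zfp407 also scored 3100 on each day. The Setd4 region held no core within 50 bp of its centre. The central 32 bases of the Zfp407 region had 5 copies.

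Remote sequence was thinly occupied for its extent. It came to 961.6 Mb, or 37.6% of 2559 Mb of sequenced genome, and carried 9.09 regions per Mb against 26.5 over the whole, a ratio of 0.343. Occupancy declined with distance throughout. It was 30.1 regions per Mb at 10 to 50 kb and 22.5 at 50 to 100 kb, then 15.4 at 100 to 200 kb (5319 members), 7.502 at 200 to 500 kb (2831 members) and 2.46 beyond 500 kb (589 members). The decline had no step at 100 kb, as the plot of regions per Mb by distance shows.

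**Figure D1:**
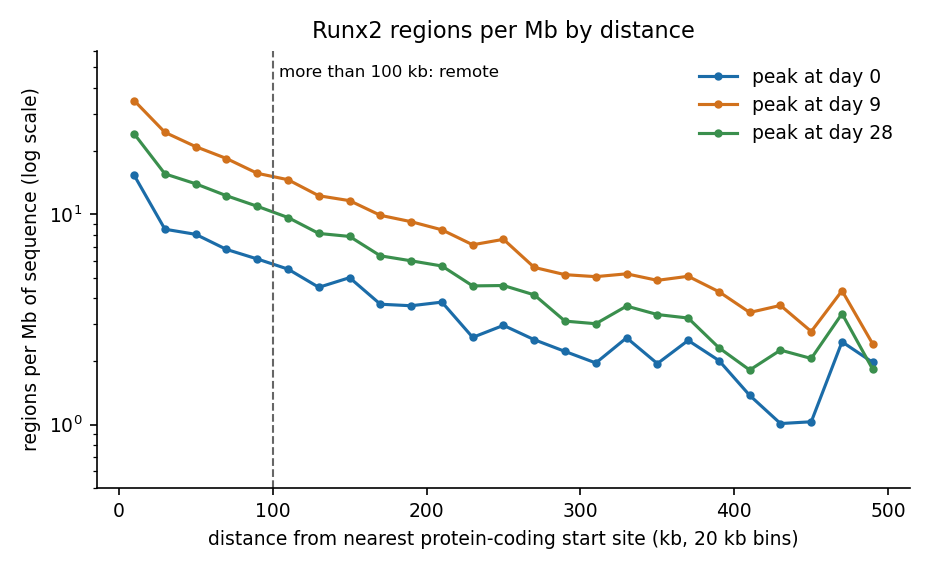
Regions per Mb of sequence with a peak at day 0, day 9 or day 28 (log scale) in 20 kb bins of distance from the nearest protein-coding start site, with the 100 kb limit dashed. From the first bin to the last, day 9 fell from 34.8 to 2.41 regions per Mb, with day 28 below day 9 in each bin and day 0 lowest in all bins but the last.

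Members followed the 3 lists to a like extent: 10.6% of day 0 peaks (10.3 to 11.0), 11.2% of day 9 peaks (11.0 to 11.5) and 10.8% of day 28 peaks (10.5 to 11.1) were in remote regions. A day 0 peak was present in 30.9% of members against 36.8% of all 67703 regions, a day 9 peak in 75.9% against 84.7%, and a day 28 peak in 49.4% against 58.2%. All 3 shares were below those of all regions, as members with peaks on several days were fewer. A single time point accounted for 59.5% of members (58.5 to 60.5), against 47.7% of all regions and 53.8% at 10 to 100 kb.

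Members were next set against the 30628 regions at 10 to 100 kb, which like them lay away from promoters. Regions with a peak at day 0 only formed 10.3% of members (897 regions, interval 9.64 to 10.9), against 6.36% at 10 to 100 kb and 5.6% of all regions. Day 28-only regions formed 10.7% (935), against 8.81% and 7.59%. Regions bound on days 0 and 28 but not 9 formed 3.15% (275), against 2.39% and 2.06%. Each of these 3 shares was above that at 10 to 100 kb by more than counting error. The members with peaks at all 3 time points were fewer, 15.7% (1370, interval 14.9 to 16.5) against 18.6% and 27.4%, and so were those of days 9 and 28, 19.9% (1737) against 23.3% and 21.1%. Day 9-only regions were the most frequent class in both sets, 38.5% of members (3368, interval 37.5 to 39.6) against 38.6% and 34.5%, and did not differ beyond counting error from those at 10 to 100 kb. Days 0 and 9 without 28 made up 1.80% (157), against 1.97% and 1.69%.

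The day 0-only share was higher at greater distance. It was 5.90% at 10 to 50 kb, 7.61% at 50 to 100 kb, 8.84% at 100 to 200 kb, 11.6% at 200 to 500 kb and 17% beyond 500 kb (14.0 to 20.3). Over the same bands, the share bound at all 3 time points went from 18.8% to 11.5%. Seen from the time patterns, 23.7% of all day 0-only regions were remote, against 7.37% of those bound throughout. The lists differ in length, so the comparison was repeated with each list limited to its 25457 highest scores. Day 0-only regions then formed 32.4% of 4439 members (31.0 to 33.8) against 25.1% at 10 to 100 kb. The day 9-only share was then 14.3%, so with equal lists it was not the most frequent class.

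**Figure D2:**
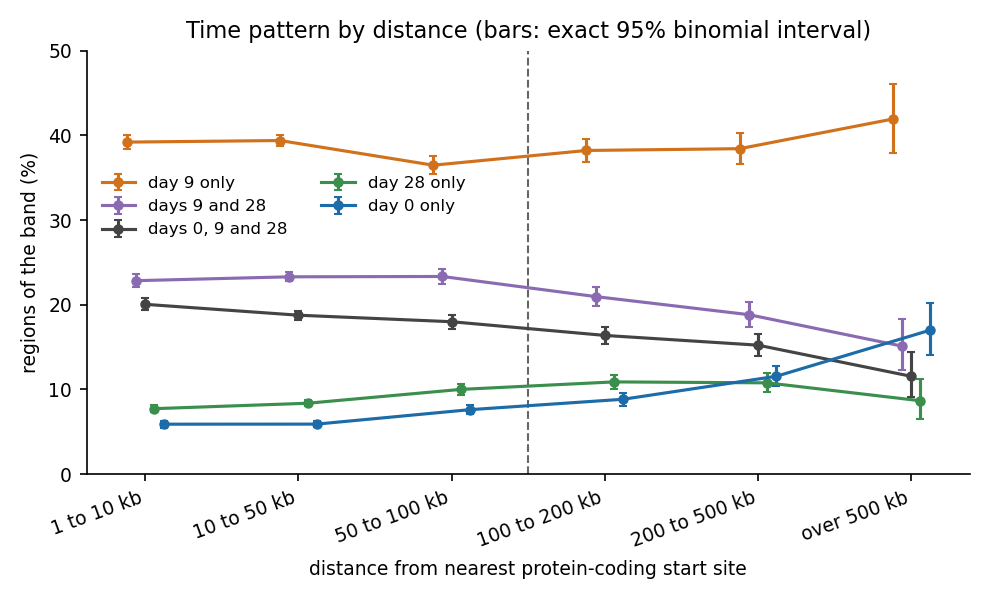
Share of regions (%) with each time pattern in 6 bands of distance from the nearest protein-coding start site, with exact 95% binomial intervals as bars and the 100 kb limit dashed. The day 0-only share was 5.90% at 10 to 50 kb and 17% beyond 500 kb, while the shares of regions bound on days 9 and 28 and at all 3 time points were lower at greater distance.

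Scores of remote peaks were lower than those of other peaks. Ranked within its own list from 0 to 100, the median remote peak of the day 0 list stood at percentile 45.1 (distribution-free 95% interval 42.6 to 47.3). In the day 9 list it stood at 42.0 (40.8 to 42.9) and in the day 28 list at 39.1 (37.9 to 40.4). Peaks at 10 to 100 kb stood at 45.1, 44.3 and 40.6, so the gap between these sets was beyond counting error at day 9 and not at days 0 and 28. The highest 10% of each list held 10.8% of remote peaks at day 0 but 4.81% at day 9 and 4.26% at day 28. Among members, score and persistence went together. Regions bound at all 3 time points had median percentiles of 63.8, 68.1 and 62.1 and a median width of 978 bp. Regions bound once were weaker, at percentile 25.7 for day 0 only (727 bp), 27.5 for day 9 only (451.5 bp) and 19.1 for day 28 only (569 bp).

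The Runx core was at the centre of many members. TGTGGT, on either strand, lay within 50 bp of the centre in 2698 members, or 30.9% (29.9 to 31.9), against 24.2% of all regions. In windows of the same length 450 to 550 bp from the same centres, 7.21% held it. At 10 to 100 kb the shares were 28.5% at the centre and 7.95% in the flanks. The share was higher at greater distance, from 29.8% at 100 to 200 kb to 37.2% (33.3 to 41.2) beyond 500 kb. Median GC at the centre was lower, from 50.5% to 46.5%. For GC of 0 to 40, 40 to 50, 50 to 60 and 60 to 100%, the core share of members was 27.8%, 33.8%, 31.1% and 15.9%. At 10 to 100 kb it was 26.9%, 33.4%, 28.6% and 15.2%, with intervals apart only for 50 to 60%. Over the day 9 percentile ranges 0 to 25, 25 to 50, 50 to 75 and 75 to 100, the core share of members was 32.2%, 33.7%, 33.3% and 31.4%. It was 33.1%, 33.7%, 28.8% and 28.5% in members without the CA repeats described in the following paragraph. The share within 50 bp differed by time pattern. It was 37.3% for day 9-only members (35.7 to 39.0), 32.6% for days 9 and 28, 22.2% for all 3 time points and 22.7% for day 0 only. The window lay at the middle of the merged region, and median widths were 978 bp for all 3 time points and 451.5 bp for day 9 only. In 20 bp bins, the core share for all 3 time points was 5.62% at -130 bp and 5.18% at 10 bp. For day 9 only it was 6.65% and 14.6%. Whether whole regions differed in cores was not tested. The longer form TGTGGTT, searched on both strands and always overlapping a core, was in 11.1% of centres and 2.09% of flanks. By time pattern it did not follow the order of the core. It was in 9.98% of day 9-only members (8.98 to 11.0) and 13.0% of those of days 9 and 28 (11.4 to 14.6). For all 3 time points it was in 9.42%, and for day 0 only in 11.0%. Around cores without CA repeats, T followed the core in 34.3% of cases at the centres (32.6 to 36.1) and 27.7% in the flanks (25.1 to 30.4), and C preceded it in 38.7% and 33.8%.

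Simple repeats set the day 9-only members apart. The repeat units ACACACAC or ACATACAC, searched on both strands after the data had been seen, were within 50 bp of the centre in 1425 members, or 16.3% (15.5 to 17.1), against 5.05% in the flanks, 12.4% at 10 to 100 kb and 10.1% of all regions. Of these 1425 members, 1265 were bound at day 9 only. Repeats were thus in 37.6% of day 9-only members (35.9 to 39.2), with 5.46% in their flanks, and in 1.28 to 4.43% of members of any other pattern. At 10 to 100 kb the day 9-only share was 26.7%, and among members it was 33.3% at 100 to 200 kb, 41.0% at 200 to 500 kb and 57.1% beyond 500 kb. With equal lists, 32.7% of day 9-only members and 2.71% of day 0-only members held a repeat. In the day 9-only class the core was as frequent with a repeat (37.0%) as without one (37.5%). Repeat-bearing members had a median percentile of 30.9 and a width of 493 bp, against 25.7 and 425 bp for those without.

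The following sequences show such centres, with the core in capitals as TGTGGT or, read from the other strand, ACCACA. They were chosen after the data had been seen, as high-scoring day 9-only members with both features, and each covers the centre and 50 bases on either side of it on the plus strand of NCBIM37.
Dync1i1 intron, chr6:5816833-5816933: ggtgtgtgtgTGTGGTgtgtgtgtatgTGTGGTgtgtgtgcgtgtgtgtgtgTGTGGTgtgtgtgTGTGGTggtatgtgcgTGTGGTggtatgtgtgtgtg
Rreb1 side, chr13:37690934-37691034: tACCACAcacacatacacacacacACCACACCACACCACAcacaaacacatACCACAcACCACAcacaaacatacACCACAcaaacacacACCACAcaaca
The Dync1i1 region lies in an intron of a dynein intermediate chain gene, 141.1 kb from the start, and had the highest score of any day 9-only member, 2685.74. The Rreb1 region lay 179.3 kb upstream of a Ras-responsive zinc finger gene and scored 1214.28. A core in such a run differs from the repeat by few letters, so a match there is a description of sequence and not of a bound site.

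Sequence found in many places was also concentrated in this class. The central 32 bases of a region occurred elsewhere in the assembly for 13.1% of members, for 27.4% of day 9-only members (25.9 to 28.9) and for 1.27 to 7.37% of members of each other pattern. At 10 to 100 kb the share was 9.81% of all regions, 19.5% of day 9-only regions and 1.501 to 5.31% of each other pattern. Where the reads of such regions were placed is not given in the sources used here, and the part of this in the day 9-only peaks was not tested. Members with neither a CA repeat nor a repeated centre numbered 6763 (77.4%). They included 1743 of the 3368 day 9-only members (51.8%) but at least 89.3% of every other pattern. Of those 1743, 42.1% held the core within 50 bp of the centre (39.7 to 44.4). The shares were 31.3% for days 9 and 28, 23.1% for day 0 only and 22.2% for all 3 time points. The order of these 4 patterns was the same as with repeats included. The day 9-only share of members was 25.8% in this set.

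Other cores repeated within a unit rather than in dinucleotides. The next pair, also chosen after the data had been seen, had at least 2 cores and peaks on days 9 and 28, and is printed as above with cores in capitals.
Rapgef5 side, chr12:118246087-118246187: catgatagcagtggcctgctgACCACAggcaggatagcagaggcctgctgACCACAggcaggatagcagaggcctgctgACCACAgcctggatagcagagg
Dysf side, chr6:84224127-84224227: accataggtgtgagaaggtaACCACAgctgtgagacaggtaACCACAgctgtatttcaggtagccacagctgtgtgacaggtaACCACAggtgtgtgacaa
The first scored 3100 at day 9 and 3100 at day 28 and lay 508.8 kb from its nearest start site, in an intron of another gene. The second scored 3100 and 3045.38 and lay 254.8 kb from the start of Dysf, a membrane repair gene. Among members with any core, 31.5% had at least 2 within the window, and 22.2% where CA repeats were left out.

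Letters of other factors followed the time pattern. AP-1, the Fos and Jun dimer, binds TGANTCA. These letters were within 50 bp of the centre in 12.2% of day 0-only members (10.1 to 14.5) and 3.29% of their flanks, and in 8.47% of members bound at all 3 time points (flanks 3.50%). Day 9-only members held them in 2.02% of centres and 3.09% of flanks. The share in all regions was 4.2%. TEAD factors, the DNA-binding partners of Yap and Taz, bind GGAATG. This was in 15.5% of day 0-only members (13.2 to 18, flanks 6.52%), in 3.98% of day 9-only members (flanks 4.91%) and in 6.31% of all regions. Of the day 0-only members, 228 (25.4%) held one or the other. The Runx core was in 22.8% of those and in 22.7% of the rest. At 10 to 100 kb the day 0-only shares were 10.6% for AP-1 and 11.6% for TEAD. These letters also marked members with a day 0 peak of any pattern, at 9.89% and 12.6%, against 2.91% and 5.78% of members without one.

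A pair of day 0-only members held both and was chosen for that after the data had been seen. Capitals mark TGANTCA and GGAATG, the latter read from the other strand as CATTCC in the first.
Sox11 side, chr12:28174828-28174928: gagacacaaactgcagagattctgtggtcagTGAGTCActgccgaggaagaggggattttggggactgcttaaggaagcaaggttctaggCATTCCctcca
Antxr2 side, chr5:98308100-98308200: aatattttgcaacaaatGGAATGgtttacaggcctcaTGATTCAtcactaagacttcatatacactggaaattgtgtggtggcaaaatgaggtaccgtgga
The region near Sox11, a gene of neural and skeletal progenitors, scored 842 at day 0 and lay 147.3 kb upstream. The region near Antxr2, a collagen-binding receptor gene, scored 419.72 and lay 151.8 kb downstream. Both windows also hold a Runx core in lower case.

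The E-box letters CAGCTG, one form bound by basic helix-loop-helix factors, were most frequent in members of days 9 and 28, at 11.3% (flanks 4.43%), followed by 10.4% for all 3 time points (flanks 4.96%), with 5.61% for day 9 only (flanks 4.05%), against 8.83% of all regions. TTGCNNCAA, a form of the C/EBP site, and CCGGAA, a form of the ETS site, were no more frequent at the centres of members than beside them, at 0.858% against 0.830% and 0.835% against 0.950%. No match says only that these letters were not in the window.

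**Figure D3:**
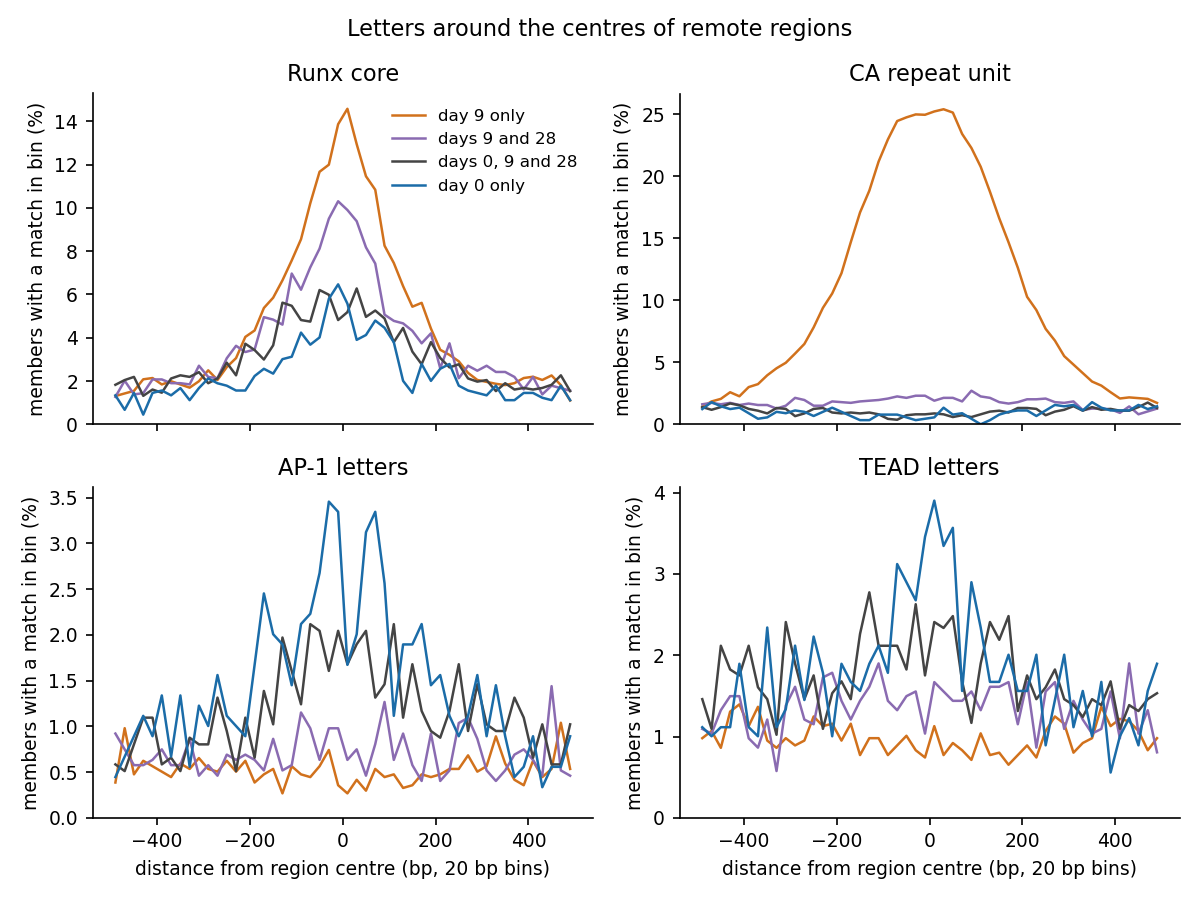
Share of remote regions (%) with the middle of a match in each 20 bp bin of distance from the region centre (bp), by time pattern, for the Runx core TGTGGT, the repeat unit ACACACAC, the AP-1 letters TGANTCA and the TEAD letters GGAATG. The Runx core reached 14.6% per bin in day 9-only and 6.47% in day 0-only regions, the CA repeat was raised over a broad span in day 9-only regions only, and the AP-1 and TEAD letters were highest in day 0-only regions.

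Introns held 2393 members (27.4%) on 18.4% of the remote sequence, or 13.5 per Mb, and intergenic sequence 6346, or 8.09 per Mb. Intronic members were less often bound at day 0 only (7.73% against 11.2%) and more often at day 9 only (41.8% against 37.3%), and the core was about as frequent, at 30.3% and 31.1%. More members lay downstream of the nearest start site (5097, 58.3%) than upstream (3642). Among chromosomes 1 to 19 and X, X carried the fewest, 1.93 members per Mb, and chromosome 17 the most, 15.3.

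Remote regions gathered at particular genes. The 8739 members had 2169 genes as their nearest, of which 735 had 1 member each and 207 had at least 10, holding 37.3% of all members. A set of 4 gene lists, chosen with earlier results of these data known, was compared by the number of members per Mb of remote sequence nearest to their genes. Skeletal transcription factor loci carried 345 members on 13.6 Mb, or 25.4 per Mb (exact 95% Poisson interval 22.8 to 28.3), against 9.09 for all remote sequence. Loci of signalling genes carried 225, or 23.4 per Mb (20.5 to 26.7), and those of matrix and adhesion genes 150, or 14.5 per Mb (12.3 to 17). The long loci of genes listed as neuronal, which hold much remote sequence, carried 131 members on 79.3 Mb. That was 1.65 per Mb (1.38 to 1.96). Neuronal is the label of the list, and expression of its genes in these cells was not examined here. Density fell with distance, from 15.4 per Mb at 100 to 200 kb to 2.46 beyond 500 kb. The lists were not matched for distance, so gene group and distance cannot be told apart in these densities. The Poisson intervals take members as independent and leave out the spread between genes of a list, so they are too narrow for comparing lists. Among skeletal transcription factor loci, Sox9 had 98.4 members per Mb and Nr2f1 0.722, both outside the interval of their list. Of genes with at least 10 kb of remote sequence, 32 of 41, 35 of 49, 19 of 31 and 1 of 55 exceeded the overall density, against 1430 of 3581 over all genes.

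**Figure D4:**
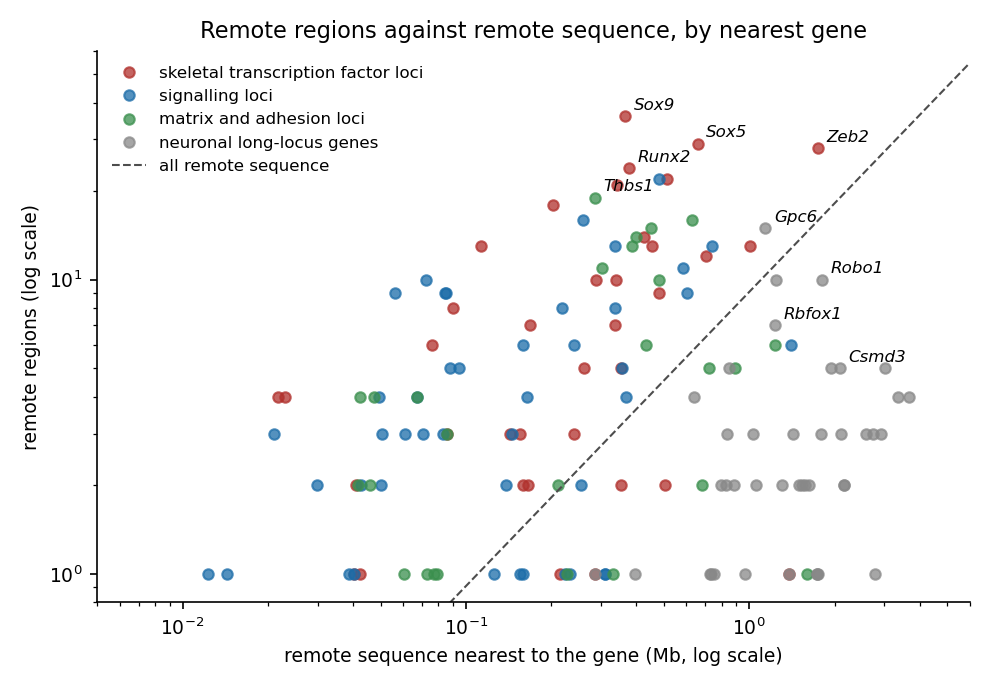
Number of remote regions nearest to each gene of the 4 lists against the Mb of remote sequence nearest to that gene (both log scales; genes without a member are not drawn), with the density of all remote sequence as the dashed line. Sox9 had 36 regions on 0.366 Mb, while of the genes on the neuronal list only Gpc6, with 15 on 1.14 Mb, lay above the line.

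The lists also differed in time. At the neuronal loci 68.7% of members were bound at day 9 only (60.02 to 76.5), against 27.8% at the skeletal transcription factor loci (23.2 to 32.9), 26.2% at the signalling loci and 26.7% at the matrix loci. CA repeats were at 41.2% of neuronal members and 12.5% of skeletal ones. Without members holding them, the day 9-only shares were 49.4% (37.8 to 61.0) and 21.5% (17 to 26.6). Distance was not matched between the lists in these shares either, and their intervals also take members as independent. A day 28 peak was present at 64.4% of signalling members (57.8 to 70.7), 59.1% of skeletal and 23.7% of neuronal members. Of the 4 lists, matrix loci had the highest share of day 0-only members, with 30 of 150 (13.9 to 27.3%) against 10.3% of all members.

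Sox9, the master factor of cartilage, had 36 members, 98.4 per Mb, from 108.2 to 389.5 kb away on both sides. A day 0 peak was present at 12 of them, a day 9 peak at 30 and a day 28 peak at 19. Over all members these peaks were present in 30.9%, 75.9% and 49.4%. Counts at single loci are to be read beside these shares. The strongest member of each locus here was ranked by score percentiles over the 3 lists together. This favoured peaks on several days over higher percentiles on fewer days. At Sox9 it was chr11:112923986-112925747, which scored 1111.38 at day 0, 1030.05 at day 9 and 351.11 at day 28. It held a core and a match to a CA repeat unit. Another, chr11:113034796-113036196, had a higher day 9 score, 1652.85, and 252.59 at day 28. Sox5 and Sox6, which act with Sox9 in chondrocytes, had 29 and 21. Both had few day 0 peaks, at 3 and 5 members. One Sox6 member, chr7:122596111-122597467, scored 104.79 at day 0, 3233.06 at day 9 and 1432.85 at day 28. Zeb2, a repressor of epithelial genes, had 28 members on 1.75 Mb, of which 15 had a day 0 peak.

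Runx2 itself was the nearest coding start for 24 members, at 113.9 to 274.8 kb, and 22 of these were in introns, 13 of Runx2 and 9 of the neighbouring Supt3h. Of the 24, 11 had peaks on days 9 and 28 and 6 had one at day 0. The shares over all members were 19.9% for days 9 and 28 without day 0, and 30.9% with a day 0 peak. An intergenic region beyond the gene's end, chr17:44628177-44629699, scored 3100 at day 9 and 1972.05 at day 28 with no day 0 peak. A Supt3h intron region, chr17:45209850-45210700, scored 2654.34 at day 9 and 583.22 at day 28. In the Runx2 intron, chr17:44728690-44730418 had peaks on all 3 days, at percentiles 95.6, 67.5 and 45.3 of the day 0, 9 and 28 lists.

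Ebf1, a factor of B cells and of mesenchymal progenitors, differed from these, with 18 of its 22 members bound at day 28 and 11 at day 28 only. The shares over all members were 49.4% with a day 28 peak and 10.7% at day 28 only. Most of the 11 had low scores, from 101.86 to 507.06. Dkk2, a secreted Wnt modulator, had a day 28 peak at 13 of 13 members, 7 of them at day 28 only. Its strongest, chr3:131582062-131583174, scored 1303.34, 3100 and 2959.28 on days 0, 9 and 28. Jag1, a Notch ligand, had 22 members, all upstream, of which 18 had a day 28 peak. Fgfr2, a receptor of osteoprogenitors, had 16, of which 15 had a day 9 peak. Such a peak was common, in 75.9% of all members. Vegfa, the vascular growth factor, had 10 on 0.0722 Mb. Plxna2, a semaphorin receptor, had 11, none with a day 0 peak.

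Among matrix genes, Adamts5 gave 8 and Thbs1 gave 7 of the 30 day 0-only members of the list. Of all members, 10.3% were bound at day 0 only. Adamts5, a protease of aggrecan, had 16 members, of which 8 were bound at day 0 only, with scores of 110.09 to 357.18. Its strongest 3 by day 9 score, at 114.4, 133.8 and 258.3 kb upstream, were bound at all 3 time points. Of these, the first scored 499.96, 2167.65 and 1068.95 and the last 1052.04, 1012.29 and 897.22. Thbs1, a matricellular glycoprotein, had 19 members, 14 with a day 0 peak and 7 at day 0 only. Its member chr2:117776322-117777651 stood at percentiles 98.6, 74.5 and 75.2 of the day 0, 9 and 28 lists, and chr2:117814103-117814959 at 82.4, 94.1 and 95.6. Inhba, the activin subunit gene among the signalling loci, had 6 day 0-only members of 13. Other matrix genes had few at day 0 only, with 1 of 15 at Tnc, 3 of 13 at Adamts9, and none of 14 at Col12a1 or of 11 at Adamts20. Tnc is a matricellular glycoprotein and Col12a1 a fibril-associated collagen. Adamts20 had 9 day 9-only members.

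Among all genes Zfp608 had the most members, 43 on chromosome 18, followed by Sox9, by Rybp, a Polycomb component, with 34 (124.8 per Mb), by Maf, a leucine zipper factor, with 33 (39.7 per Mb), and by Rnd3, a regulator of the actin cytoskeleton, with 32 (68.8 per Mb). Maf and Rnd3 contrasted in time: a day 0 peak was present at 5 of 33 Maf members and at 20 of 32 Rnd3 members, 9 of these at day 0 only. Of all members, 30.9% had a day 0 peak and 10.3% were bound at day 0 only. The strongest Rnd3 member, chr2:50741119-50742415, scored 3100, 1792.88 and 2282.02. At Maf, chr8:118347346-118348389 had the highest score of any day 28-only member, 1366.55, and chr8:118453228-118454440 scored 358.56 at day 0, 219.34 at day 9 and 1937.83 at day 28.

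**Figure D5:**
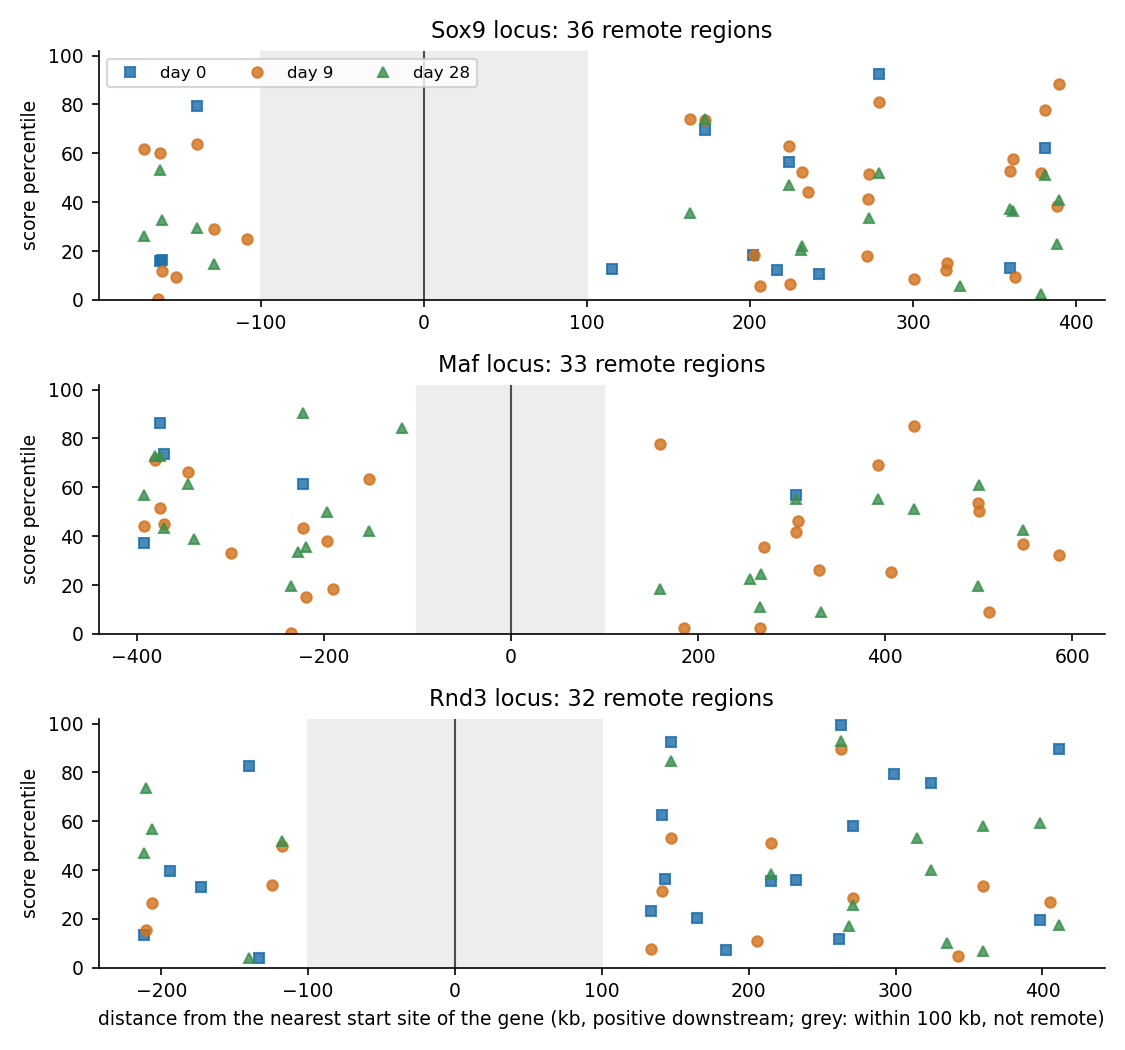
Score percentile within its list (0 to 100) of each peak in remote regions at the Sox9, Maf and Rnd3 loci against the distance from the nearest start site of the gene (kb), by time point, with the 100 kb on either side that hold no member in grey. Day 0 peaks were at 12 of 36 regions at Sox9, 5 of 33 at Maf and 20 of 32 at Rnd3.

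Loci of the neuronal list held few and mostly weak members. Gpc6, a glypican, had 15, of which 12 were in introns and 8 were bound at day 9 only. Its strongest, chr14:117785185-117786270, scored 3100 at day 9 and 1406.1 at day 28 and held 15 cores near its centre. Robo1 and Robo2, receptors of Slit guidance cues, had 10 each on 1.81 and 1.25 Mb, and 7 of each were bound at day 9 only. Day 9-only regions were 38.5% of all members. At Robo1 the day 9 scores ran from 106.18 to 2480.88. The median day 9 percentile over the neuronal list was 33.2 (27.0 to 38.1), against 49.8 (44.2 to 54.6) over the skeletal list. Sites of 6 loci, from the member ranked first at each, are printed in the same 30-base form to set the gene groups side by side. At Maf, the day 28-only member at percentile 84.5 stood higher in the day 28 list than the printed member, at 72.6.
Sox9, chr11:112924843-112924872, minus strand: ctatcatgtgtaTGTGGTagggggagaaga
Plxna2, chr1:196252435-196252464, minus strand: ctgtcagaacagTGTGGTttggagataaat
Adamts5, chr16:86159716-86159745, minus strand: agctgctaagttTGTGGTaactttttgtgg
Maf, chr8:118607170-118607199, minus strand: gtggaatgagtaTGTGGTtaggtgactaag
Robo1, chr16:73441913-73441942, plus strand: cggacaccatgcTGTGGTttgctgttttac
Gpc6, chr14:117785714-117785743, minus strand: ggtgtggtgtgcTGTGGTgtggtgtggtgt
The Gpc6 core recurs in a GTGGT tandem array. The Sox9 core overlaps a single match to the unit ACATACAC, read from the other strand. No CA repeat unit was within 50 bp of the centre in the other 4.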

How the data were processed

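Reads were 36-base single-end sequences per the labels, processed with CASAVA (version 1.6), mapped to mm9 with Bowtie (version 0.12.8) and called with MACS (version 1.4.1) at default settings. The authors pooled 2 libraries per time point, retained peaks below a p-value of 1e-10 against input DNA, and deposited 1 list for each of 3 time points. The deposited score of a peak is 10 times the negative log10 of its p-value, and was used only within its own list. Pooling means that replicates could not be compared and no test was run. The lists hold no read counts, and the study's raw read totals, highest for day 0, entered no value.

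Peaks sharing at least 1 bp were merged. Start sites and exons were those of 51710 protein-coding transcripts of 22359 genes in GENCODE M1, and sequence was NCBIM37, within whose chromosomes all peaks lay. This copy marks no repeats, so the planned share of repeat bases could not be used. Letters were sought on both strands within 50 bp of each centre and in flanks 450 to 550 bp away. Shares have exact binomial (Clopper-Pearson), medians distribution-free and densities exact Poisson 95% intervals, all for counting error only. Scripts ran in Python (version 3.11.15) with NumPy (version 2.4.6) and SciPy (version 1.17.1) and were tested on simulated data.

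The members and gene lists were chosen with earlier results of these data known. Named regions were the 5 farthest members, the 5 with the highest mean percentile at all 3 time points and the highest score for each single time point. Named genes were the 6 of each list and the 5 of all genes with most members. CA repeats, repeated centres, TGTGGTT, the flanking letters of the core, the longer sequences and the individual members named at loci were chosen after the data had been seen. Alternatives changed the score limit, the merging rule, the list lengths, the start sites, the distance, the window, the letters and the chromosomes, and left out regions near assembly gaps or with repeated sequence.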

Additional observations from a re-analysis of the deposited data

How the results depend on the processing

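No paired analysis was possible because each time point had 1 list pooled from its libraries, and leaving out a replicate was not possible for the same reason. The number of remote regions was 4712 with scores of at least 200, 2001 with scores of at least 500, 4439 with lists of equal length, 4476 with start sites and exons of all transcripts, 3420 over 200 kb and 17009 over 50 kb. The day 9-only share was 32.7%, 33.0%, 14.3% and 40.3% under the first 4 of these settings, 28.8% without CA repeats, 32.2% without centres found elsewhere and 25.8% without either. The share bound at all 3 time points was 17.2% with scores of at least 200, 18.5% with equal lists, 14.7% with all transcripts, 14.6% over 200 kb, 16.8% over 50 kb, and 18.3%, 17.6% and 19.3% without CA repeats, repeated centres or either. The core share was 32.6% over 200 kb, 29.9% over 50 kb, 32.9% with either pyrimidine inside it, 45.03% within 100 bp, 32.9% at the centre of the day 9 peak, 29.5% without CA repeats and 32.2% without repeated centres. The median day 9 percentile was 39.3 and 39.8 at the 2 score limits, 39.2 with equal lists, 39.8 over 200 kb, 43.1 over 50 kb, and 44.7, 43.4 and 45.5 without CA repeats, repeated centres or either. Score limits, shorter lists, the distance limit and the added start sites and exons change the number of regions by construction. The causes of the other shifts were not tested. The alternatives without repeats were added after the data had been seen. Merging only peaks with 50% overlap, leaving out regions near assembly gaps and limiting the chromosomes moved none of these values beyond its interval.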

Other observations

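Of non-coding start sites in remote sequence, those of long non-coding transcripts were the most densely occupied of the kinds compared. The sequence within 1 kb of these long non-coding start sites was 0.112% of remote sequence. Within 1 kb of them lay 56 remote regions, or 52.1 per Mb, of which 30.4% had peaks at all 3 time points (18.8 to 44.1), against 15.7% of all remote regions. The strongest of these, chr6:5927427-5928059, lay at 1700019G24Rik, 214.9 kb from the nearest coding start, and stood at percentiles 91.2, 91.5 and 95.7 on days 0, 9 and 28. Start sites of pseudogenes had 26 regions (11.3 per Mb), miRNAs 10 (14.97 per Mb) and small nuclear or nucleolar RNAs 9 (5.06 per Mb).

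Remote regions were clustered along the chromosomes. In the 100 kb after a region there was no other for 27.6% of them, and 32.9% began a stretch with at least 5. The densest stretch, chr8:122802240-122902871 near Fam92b and Gse1, held 28 regions, 14 of them at day 9 only, against 38.5% of all remote regions. The next, chr8:123407223-123504563, held 22 near Foxf1a, a forkhead gene of visceral mesenchyme, and Irf8, and 15 of these had a day 28 peak. Of all remote regions, 49.4% had one. Both stretches lie inside Gm20388, a single long gene model that holds 105 remote regions and whose extent decides that they count as intronic. A stretch near Prex1, chr2:166196209-166295377, held 21 regions with no CA repeat, 9 of them at all 3 time points, and their median day 9 percentile was 64.3.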
